A study of Mus musculus with 59 samples.

Results

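Oxidative phosphorylation uses 5 protein complexes of the inner mitochondrial membrane, and their subunit genes were described here across genotype, drug treatment and sex in mouse prefrontal cortex. Members were chosen by gene symbol alone: the Nduf genes of the A, B, C, S and V series, the 4 Sdh genes, all Uqcr genes, the Cox4 to Cox8 genes, all Atp5 genes and the protein-coding genes of mitochondrial DNA, with symbols of pseudogenes left out. The rule found 98 of the 51456 listed genes, 85 nuclear and 13 mitochondrial. Of these, 93 passed a filter on low values and were tested among 16839 genes. The untested members were Cox6c2, Cox7b2, Cox8b, Cox8c and a second identifier of Atp5o. By symbol, 36 tested nuclear members belong to complex I, 4 to complex II, 8 to complex III, 15 to complex IV and 17 to complex V. Ndufa4 was counted with complex I by its symbol, although it is now known as a complex IV subunit. Cox7a2l and Atp5s are an assembly factor and a coupling factor, not structural subunits. Cyc1, Ndufab1 and a few other subunits fall outside the rule.

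All 59 libraries came from C57BL/6J mice at postnatal day 25. The pups had received vehicle, fluoxetine or lithium in maternal milk from day 3 to day 24. Their genotype was labelled wild type (WT) or heterozygous (HT) for the Chd8-S62X allele, whose name denotes a premature stop codon, and both sexes were used. Each of the 12 groups of genotype, drug and sex held 5 libraries, except HT-labelled females given fluoxetine with 4. Chd8 encodes a chromatin remodeller, fluoxetine blocks serotonin reuptake, and lithium inhibits glycogen synthase kinase 3 and inositol monophosphatase. The labels name no dam or litter and do not say that each library is a separate animal, so all p-values measure the spread between these libraries.

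Complex I takes electrons from NADH and complex II from succinate. Both pass them through ubiquinone to complex III, cytochrome c and complex IV, which reduces oxygen. Complexes I, III and IV pump protons, and complex V (ATP synthase) lets them flow back to make ATP. Complex II is built from nuclear genes only, whereas the other complexes join nuclear subunits to subunits made from mitochondrial DNA. Mitochondrial genes are transcribed as long precursors from both strands and cut at tRNAs. Neurons depend on this pathway to restore ion gradients after firing.

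Values are taken as normalised counts, that is, estimated reads per gene divided by a scaling factor per library. Chd8 was measured first as a check of the labels. It ranged from 5115 to 6626 in the 29 HT-labelled libraries and from 2828 to 4229 in the 30 WT-labelled ones, without overlap. The difference was 0.70 ± 0.027 on the log2(value + 1) scale (SE, adjusted p = 9.23e-27, limma with Benjamini-Hochberg adjustment), higher in HT. A stop codon allele does not give that direction by its name, so HT and WT below mean only the label. Normalised counts summed to between 30342634 and 33683928 per library. Marker genes of other tissue varied between libraries: 8 libraries stood over 5 robust SDs above the median for striatal projection neuron markers. The level of 9 olfactory bulb markers (their mean centred log2 value) ran from -2.43 to 2.59. The 10 markers of excitatory cortical neurons, the defining cells of the labelled tissue, had means from 358 (Emx1) to 48745 (Slc17a7).

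Of the mitochondrial genes, 5 have a near-identical copy over their whole length in a nuclear segment of chromosome 1, and this bears on their values below. A 60-base stretch in the middle of mt-Co3, which encodes a core subunit of complex IV, is printed with its counterpart in the annotated pseudogene Gm28437, whose 783 bases match mt-Co3 with 0 substitutions.
mt-Co3: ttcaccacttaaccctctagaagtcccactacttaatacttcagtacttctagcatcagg
Gm28437: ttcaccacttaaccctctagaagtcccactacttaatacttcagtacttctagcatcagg
The copies of mt-Co2 (Gm28661), mt-Atp6 (Gm10925) and mt-Nd4l (Gm10222) were likewise identical over 681, 678 and 294 bases. That of mt-Nd3 (Gm28438) differed at 1 position of 345, T3C counted from the first base of mt-Nd3, shown in capitals over the first 60 bases.
mt-Nd3: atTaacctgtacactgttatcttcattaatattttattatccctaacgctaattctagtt
Gm28438: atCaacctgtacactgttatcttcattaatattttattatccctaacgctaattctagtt
These copies lie between positions 24612407 and 24615565 of chromosome 1 (GRCm38). A shorter copy of mt-Co1 (Gm29216) lies beside them. Reads from such stretches cannot be assigned to one origin, and the deposited values divide them between both genes.

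Mitochondrial genes also overlap each other. The 43 bases at chrM:7927-7969 (plus strand) belong to both mt-Atp8 and mt-Atp6, which encode subunits in the membrane part of ATP synthase.
mt-Atp8 and mt-Atp6: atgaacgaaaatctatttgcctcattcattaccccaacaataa
The ends of mt-Nd5 and mt-Nd6 overlap by 14 bases at chrM:13552-13565, on opposite strands. mt-Nd6 is the one protein gene of the light strand. The kit keeps strand, but the sources used here do not say whether quantification used it. Reads from mt-Nd6 and from RNA of the opposite strand over the same bases may therefore not be separated.

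Promoters of nuclear subunit genes are known for sites of ETS family factors such as GABP, of NRF1 and of YY1. In windows from 250 bases before to 50 after the start (RefSeq, GRCm38.p6), 64 of the 80 tested nuclear members matched by symbol, with 69 promoters. The ETS core CCGGAAG, on either strand, was present in 16 of the 69 (23.2%), against 8.86% of all 32851 promoters and 11.6% of those of protein-coding genes. The NRF1 motif, a palindrome marked in capitals in the Atp5k window that follows, was in 5 (7.25%, against 0.971% of all promoters) and YY1 (AAGATGGC) in 9 (against 2.75% of all promoters). The windows that follow are from members that were higher with lithium, with the motif in capitals, read along the gene's strand. They show an ETS core, written as its reverse complement in all 4 cases, in Cox6b1 (chr7:30626115-30626174, minus strand), Atp5e (chr2:174464171-174464230, minus), Sdhd (chr9:50603863-50603922, minus) and Uqcrh (chr4:116075071-116075130, minus). Atp5k (chr5:108434415-108434474, minus) holds the NRF1 motif.
Cox6b1: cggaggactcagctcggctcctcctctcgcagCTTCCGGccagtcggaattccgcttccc
Atp5e: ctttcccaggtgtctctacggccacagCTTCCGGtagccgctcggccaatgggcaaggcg
Sdhd: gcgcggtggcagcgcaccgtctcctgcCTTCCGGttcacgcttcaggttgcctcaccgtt
Uqcrh: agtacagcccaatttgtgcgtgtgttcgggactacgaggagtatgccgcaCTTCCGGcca
Atp5k: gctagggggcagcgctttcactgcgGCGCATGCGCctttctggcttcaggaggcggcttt
Among promoters of members higher with lithium, 6 of 16 held the ETS core, 1 the NRF1 motif and 0 the YY1 motif. Among those of the other nuclear members, 10 of 53 held the ETS core, 4 the NRF1 motif and 9 the YY1 motif. A match describes these letters only, and binding was not measured.

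Per kilobase of transcript, mitochondrial members stood far above nuclear ones. The median level of tested nuclear members was 2153 per kb in complex I, 2200 in complex II, 4246 in complex III, 3857 in complex IV and 4894 in complex V. The highest nuclear members per kb were Cox8a (16236), Cox4i1 (15627), Atp5b, the catalytic beta subunit (15413), and Ndufa4 (13413). The lowest by complex were Ndufb4 of complex I (453), the membrane anchor Sdhc of II (630), the Rieske protein Uqcrfs1 of III (2050), Cox4i2 of IV (35.8) and Atp5s of V (250). Ndufb4 shares 38.3% of its 31-base words with other genes, with Ndufb4c (mean 1026) the closest, so its level is uncertain. Among mitochondrial genes, mt-Co1, the catalytic subunit of complex IV, reached 523809 per kb and mt-Cytb of complex III 219448. mt-Nd6 reached 2918 per kb, within the range of nuclear members of complex I. The libraries were made with a poly(A) kit, so the level of mt-Nd6 and its differences below are those of captured RNA. How far capture differed between genes was not tested. Together the 13 mitochondrial members took 4.86 to 7.47% of a library's summed counts (median 5.82%), and all nuclear members 0.839 to 0.923% (median 0.878%).

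**Figure D1:**
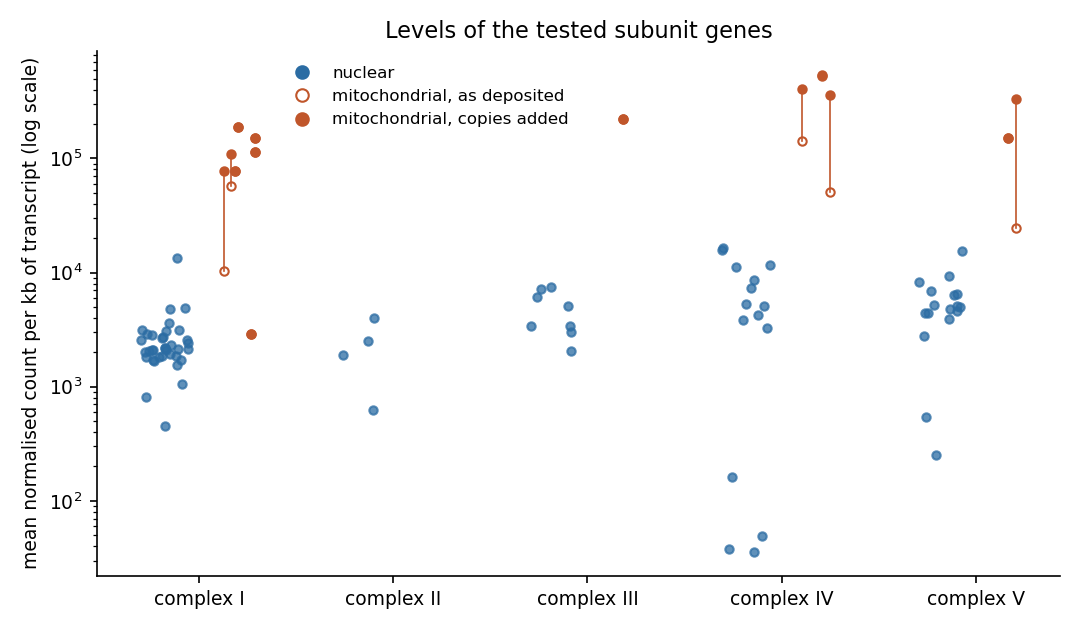
Mean normalised count per kb of transcript (log scale) for each tested member, by complex. Blue points are nuclear members, open orange points mitochondrial members as deposited, and filled orange points the same after adding their nuclear copies. Filled points lie above all nuclear members of their complex except mt-Nd6, at 2918 per kb in complex I.

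The chromosome 1 copies carried large counts that traded off against their mitochondrial twins. mt-Co3 was listed at 9184 to 94133 over the 59 libraries, a log2 SD of 0.83. Its sum with its copies varied with an SD of 0.12, and mt-Co3 itself held 3.28 to 31.8% of that sum (14.1% of the mean sum). The SD fell in the same way from 0.43 to 0.12 for mt-Co2, from 0.40 to 0.13 for mt-Atp6, from 0.39 to 0.18 for mt-Nd3 and from 0.34 to 0.17 for mt-Nd4l. Among genes to which no copy was added, the SD was 0.12 for mt-Nd1 and mt-Cytb, 0.18 for mt-Atp8 and 0.21 for mt-Nd6. After addition, mt-Co2 rose from 140485 to 405812 per kb, mt-Co3 from 50784 to 360174 and mt-Atp6 from 24404 to 327701. The 3 mitochondrial subunits of complex IV then lay between 360174 and 541289 per kb. The copies took 1.82 to 2.69% of a library, so the mitochondrial share with copies was 6.83 to 10.1%. In total 12 annotated pseudogenes sharing at least 100 words of 31 bases with 9 members were added. Mitochondrial results are given both ways where that differs.

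**Figure D2:**
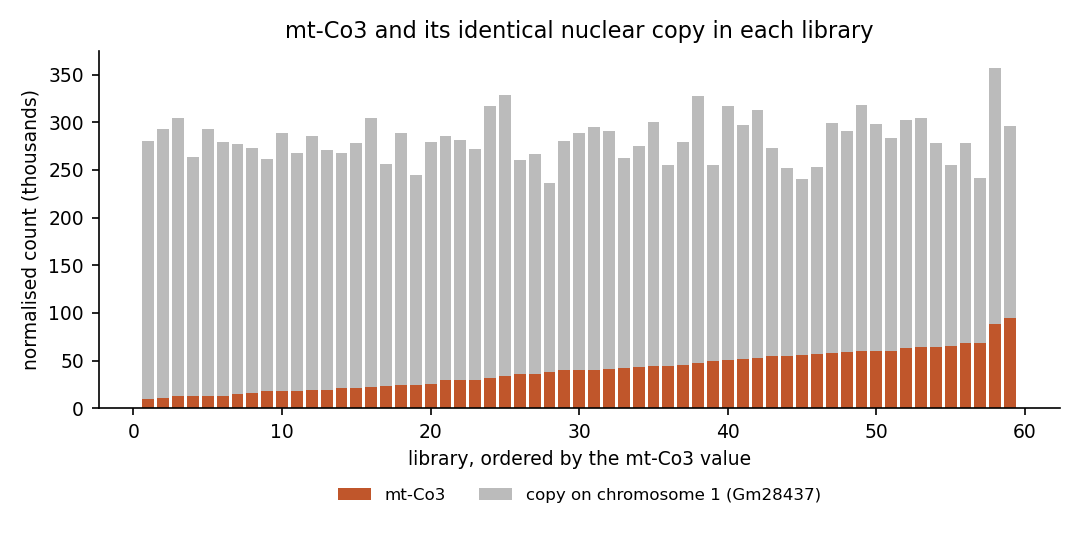
Normalised counts (axis in units of 1000) of mt-Co3 (orange) and of its identical copy Gm28437 (grey), stacked, in the 59 libraries ordered by mt-Co3. The orange part grows from 9184 to 94133 while the height of the stack shows no such rise.

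In complex IV, several positions have more than 1 gene, and one form was far higher than the others in this tissue. Cox4i1 had a mean of 11642 and Cox4i2, a form known from lung, of 26.0. Cox6b1 stood at 5351 and its testis form Cox6b2 at 22.7. Cox7a2 stood at 3527 and the muscle form Cox7a1 at 15.0. Cox8a stood at 8930, Cox8b at 1.72 and Cox8c at 0 in all libraries. Cox6a1 stood at 6366 and Cox6a2, the heart and muscle form, at 110. The c-ring of ATP synthase has 3 genes for the same mature peptide, and there 2 of them had similar levels: Atp5g3 stood at 4614, Atp5g1 at 3785 and Atp5g2 at 237. Atp5g2 shares all of its 31-base words with other genes whose means sum to 1571, so its level is uncertain. Atp5g1 shares 67.3% of its words with genes whose means sum to 2.22.

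Nuclear members of high level varied little among libraries, and mitochondrial genes varied together more closely than nuclear members did. Over 72 nuclear members with a mean of at least 1000, the log2 SD ran from 0.046 to 0.15 (median 0.085), lowest for Sdha, the flavoprotein of complex II. After group means were removed, pairs of mitochondrial genes correlated with a median r of 0.86 when copies were added (78 pairs) and 0.45 as deposited. Pairs of nuclear members had a median r of 0.29 (3160 pairs) and nuclear with mitochondrial pairs 0.30 (1040 pairs). All of these share the same 59 libraries and are descriptions, without SDs or pairs of other genes beside them. The nuclear level, the median over 80 members of the centred log2 value, ran from -0.14 to 0.096, and the mitochondrial level with copies from -0.28 to 0.38. By group, the mean nuclear level was lowest in vehicle HT males (-0.037 ± 0.075, SD, n = 5) and highest in fluoxetine WT males (0.039 ± 0.053, n = 5). In the 4 lithium groups it lay between 0.0022 and 0.030, and in the 4 vehicle groups between -0.037 and -0.010, with libraries that overlapped. The mitochondrial level with copies was highest in fluoxetine WT females (0.12 ± 0.17, n = 5), where 1 library reached 0.38. The 2 levels correlated across libraries with r = 0.54 (rho = 0.52), 0.47 without the 2 farthest libraries and 0.57 within groups.

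Cell type marker levels were set beside both levels. The nuclear level had r = 0.70 with the level of 8 inhibitory neuron markers (0.62 within groups), 0.58 with 10 excitatory neuron markers and -0.38 with olfactory bulb markers. For the mitochondrial level with copies these were 0.31, 0.63 and -0.63. In bulk tissue, fewer cells of a type and less RNA per cell cannot be told apart. These correlations are given as descriptions without a p.

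**Figure D3:**
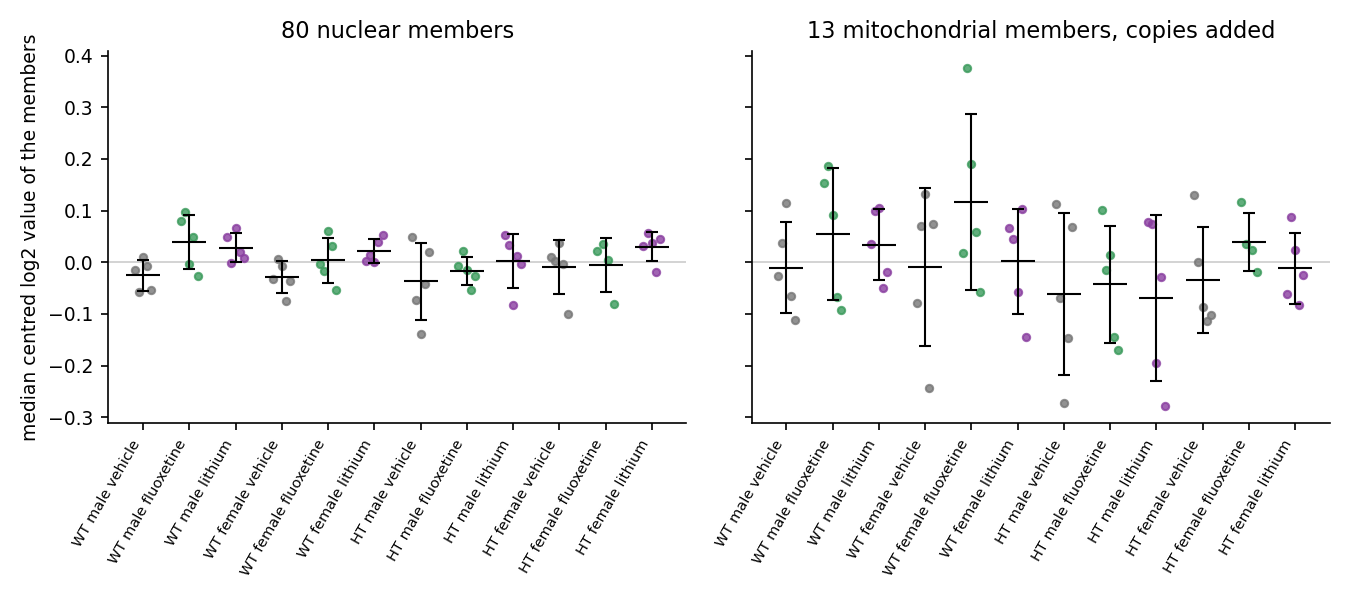
Level (median over members of the centred log2 value) of the nuclear members (left) and of the mitochondrial members with copies added (right) in each library of the 12 groups; grey, green and purple points are vehicle, fluoxetine and lithium, and bars give the mean and SD. Within-group spread is wider for mitochondrial members, and the groups overlap in both panels.

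RNA of 18 nuclear subunit genes and of mt-Nd6 was higher with lithium than with vehicle, by 0.059 to 0.31 on the log2 scale. Averaged over genotype and sex, 19 of the 93 members differed between lithium and vehicle at an adjusted p of 0.05, all 19 higher, against 4.41% of all tested genes (2.8% higher and 1.61% lower). Members are abundant and measured with a smaller error (median SE 0.027 against 0.051 for all genes). Among the 6282 genes with a mean of at least 1000, 4.84% were higher, against 18 of the 85 members at that level. The 19 came from all complexes: 6 nuclear members of 36 in complex I, 1 of 4 in II, 2 of 8 in III, 4 of 15 in IV and 5 of 17 in V. Over all 80 nuclear members the median difference was 0.042 on the log2 scale, with 65 above 0, against a median of -0.00038 over all genes. It was 0.011 with the inhibitory neuron level as a covariate. Complex medians lay between 0.026 (II) and 0.065 (III).

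**Figure D4:**
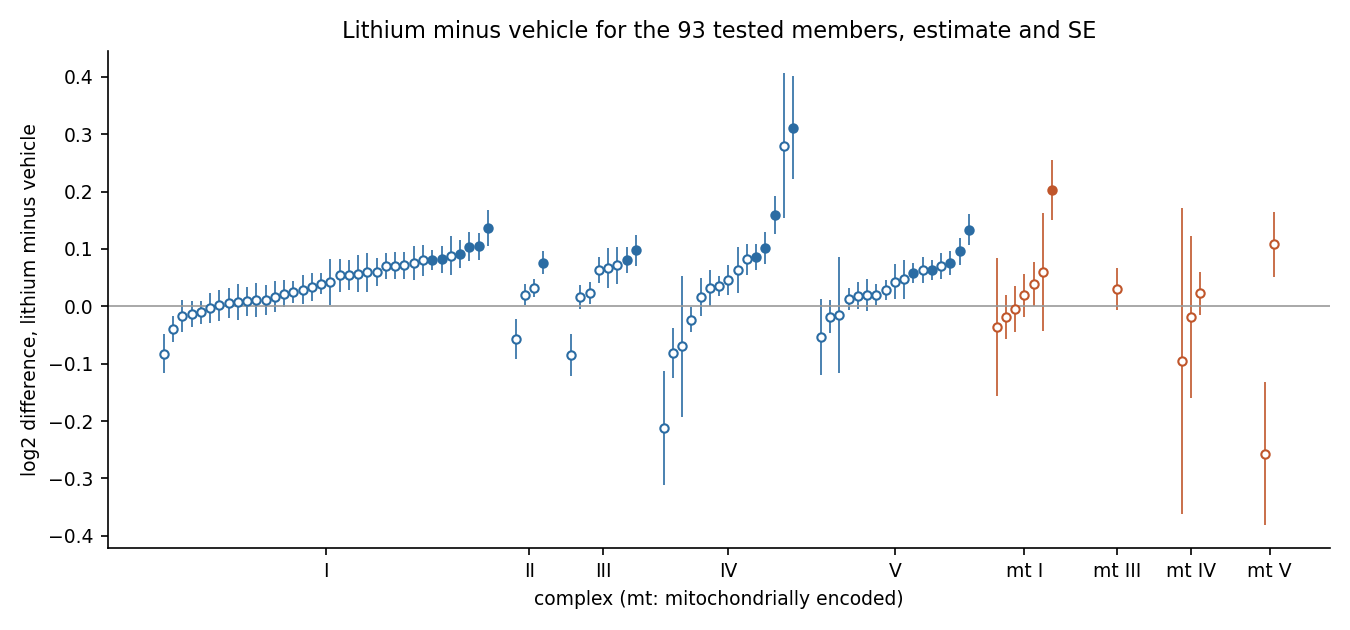
Difference between lithium and vehicle (log2, averaged over genotype and sex) for the 93 tested members, sorted within each complex; bars are SE, filled points passed the test, blue is nuclear and orange mitochondrial as deposited. Filled points are all above 0, and the widest bars belong to mt-Co3, mt-Co2, Cox7a1 and mt-Atp6.

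Cox6b1, which faces the intermembrane space and joins complex IV monomers, had the largest difference among called nuclear members with a mean of at least 1000. It ranged from 4098 to 5725 in vehicle libraries (median 5243) and from 5105 to 6699 in lithium libraries (median 5663). The ranges overlapped, and the means were 5111 ± 408 and 5704 ± 410 (SD, n = 20 each). The difference was 0.16 ± 0.033 (SE, adjusted p = 0.0024, limma). In each stratum the mean was higher with lithium: WT males had 5143 with vehicle and 5997 with lithium, WT females 5173 and 5728, HT males 4860 and 5456, and HT females 5270 and 5634.

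Atp5k, subunit e at the interface of ATP synthase dimers, was also higher. It ranged from 1548 to 2178 with vehicle (median 1821) and from 1808 to 2162 with lithium (median 2016). The highest library of all was a vehicle one. The difference was 0.13 ± 0.027 (SE, adjusted p = 0.0023, limma), and the 4 stratum differences were 0.16 (HT males), 0.081 (HT females), 0.099 (WT males) and 0.20 (WT females).

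In complex I, Ndufv1 holds the flavin that accepts electrons from NADH. It ranged from 3330 to 3739 with vehicle (median 3503) and from 3549 to 3978 with lithium (median 3732), a difference of 0.081 ± 0.018 (SE, adjusted p = 0.0050, limma). Ndufa1, an X-linked accessory subunit of the membrane arm, ranged from 1086 to 1445 and from 1244 to 1604, and differed by 0.14 ± 0.031. The accessory subunit Ndufa12 ranged from 1694 to 2041 and from 1869 to 2323, and differed by 0.10 ± 0.024. Their adjusted p-values were 0.0066 and 0.0074 (limma). Vehicle and lithium ranges overlapped for all of these.

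Atp5e, the epsilon subunit of the central stalk, ranged from 1481 to 1787 with vehicle and from 1601 to 1858 with lithium (0.096 ± 0.023, adjusted p = 0.011, limma). The remaining called members lie outside the rule for naming and are listed after their values were seen. In the ATP synthase these were Atp5b (0.059), Atp5c1, the gamma rotor subunit (0.064), and Atp5o, the stalk subunit OSCP (0.076). In complex I they were Ndufa8 (0.10), Ndufb10 (0.082) and Ndufs8, which carries iron-sulphur clusters (0.091). In complexes II and III they were the membrane anchor Sdhd (0.076), the ubiquinone-binding Uqcrb (0.097) and the hinge protein Uqcrh (0.080). In complex IV they were Cox4i1 (0.10) and Cox7b (0.085), and Cox6a2 with mt-Nd6 completed the 19.

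Cox6a2 had the largest difference of any member, at a low level. It ranged from 58.1 to 136 with vehicle (median 101) and from 71.0 to 159 with lithium (median 125). The difference was 0.31 ± 0.090 (SE, adjusted p = 0.033, limma). Cox6a1, the main form, did not pass (means 6112 ± 594 and 6369 ± 441, SD, n = 20). In cortex, Cox6a2 is known from parvalbumin interneurons, and Pvalb was set beside it after its values were seen. Across the 59 libraries, log2 values of both genes correlated with r = 0.80 (permutation p = 1e-05, the smallest that 100000 permutations can give) and rho = 0.73 (permutation p = 1e-05). The r was 0.76 without the 2 libraries farthest from the Pvalb median and 0.80 within groups. It was the only relation of this kind that was tested. Libraries were shuffled without regard to group or replicate number, so the p treats them as exchangeable. The nuclear level itself had r = 0.70 with the inhibitory neuron markers. Whether the relation is particular to Cox6a2 was not tested. Pvalb itself had means of 577 ± 156 with vehicle and 721 ± 151 with lithium.

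**Figure D5:**
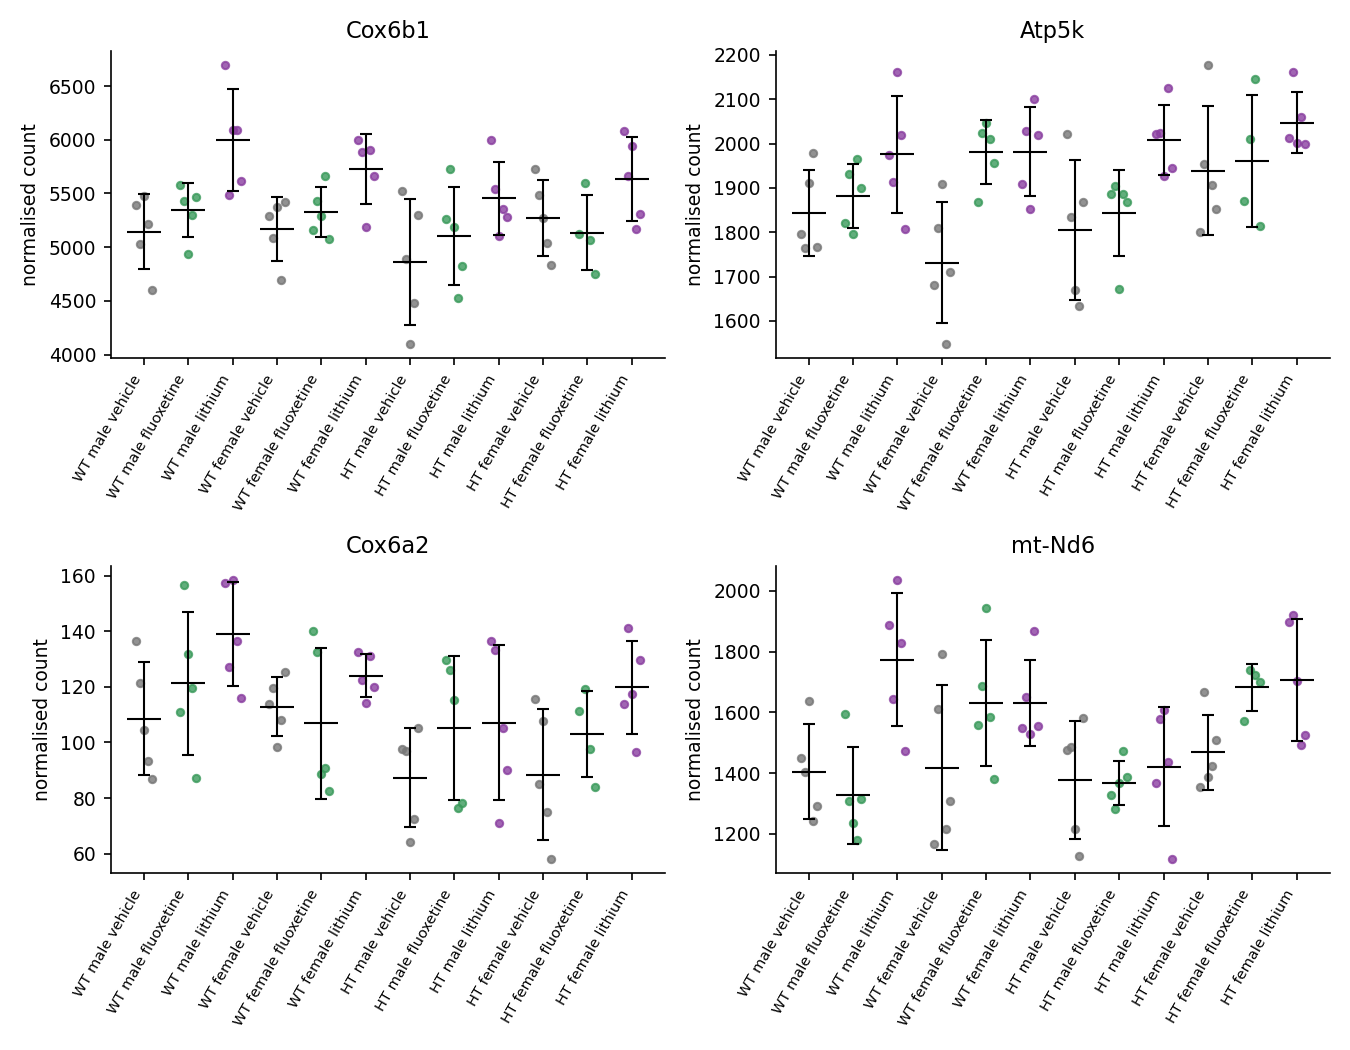
Normalised counts of Cox6b1, Atp5k, Cox6a2 and mt-Nd6 in each library of the 12 groups (axes do not start at 0); grey, green and purple points are vehicle, fluoxetine and lithium, with mean and SD. For Cox6b1 and Atp5k the lithium mean is above the vehicle mean in each genotype and sex, and points of the groups overlap.

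Of the 13 mitochondrial members, mt-Nd6 was the one called with lithium. Their median difference was 0.020, with 7 of 13 above 0 as deposited and 10 of 13 with copies added. mt-Nd6 ranged from 1128 to 1793 with vehicle and from 1118 to 2037 with lithium, and differed by 0.20 ± 0.053 (SE, adjusted p = 0.017, limma). Its stratum differences were 0.33 (WT males), 0.22 (WT females), 0.21 (HT females) and 0.045 (HT males). mt-Nd5, whose end overlaps it on the other strand, differed by 0.039 ± 0.038 (adjusted p = 0.63, limma). mt-Atp6 had -0.26 ± 0.12 as deposited and -0.033 ± 0.040 with copies, and neither passed. The other mitochondrial genes lay between -0.019 and 0.11 with copies added. Of mitochondrial against nuclear genes, only the medians are given, since no test of that difference was made.

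Marker lists were counted in the same comparison. All 12 striatal markers were above 0 (median 0.19, 1 called), all 9 olfactory bulb markers below 0 (median -0.26, 0 called and 0 with an unadjusted p under 0.05) and all 7 meningeal markers below 0 (median -0.36, 2 called), as were all 5 erythroid markers (median -0.37, 0 called, 3 with an unadjusted p under 0.05). Of 8 inhibitory markers, 7 were above 0 (median 0.042, 0 called, 2 with an unadjusted p under 0.05), and their level ran from -0.25 to 0.11 with vehicle and from -0.047 to 0.17 with lithium. With that level as a covariate, 4 members were called, 3 higher and 1 lower, in place of 19. Cox6b1 then had 0.092 (adjusted p = 0.071) and Cox6a2 0.10 (adjusted p = 0.51, limma). With other levels as a covariate the count was higher than 19: 24 with the olfactory bulb level, 25 with the excitatory neuron level and 23 with the first principal component, all members higher. The inhibitory and excitatory covariates were added after the data were seen. Without the 8 libraries high in striatal markers, 15 members were called, all higher. The part of the meningeal and erythroid markers was not tested.

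Other genes of the pathway were also counted, to be read against the 4.41% of all genes called and the 18.7% with an unadjusted p under 0.05. Cytochrome c (Cycs), the carrier between complexes III and IV, was higher by 0.11 ± 0.023 (adjusted p = 0.0041, limma), and so was the porin Vdac3 (0.066), 2 of 16 carriers. Of 46 assembly factors, 3 were higher and 1 lower: Atpaf1 (0.13) assembles ATP synthase, Cox10 (0.14) makes heme for complex IV, Ndufaf4 (0.11) and Ndufaf3 (-0.12) act together on complex I. In the citric acid cycle and pyruvate dehydrogenase list, 1 of 17 was higher, Idh3b (0.079). Of 23 genes of mitochondrial DNA maintenance and expression and of 12 transcriptional regulators, 0 were called (3 and 1 with an unadjusted p under 0.05).

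With fluoxetine, 0 of 93 members were called against vehicle (0.0653% of all genes, 0.0297% lower), while 26 had an unadjusted p under 0.05 (11.9% of all genes), 23 of them above 0. The nuclear median was 0.033, with 66 of 80 above 0. The mitochondrial median was 0.063 as deposited and 0.077 with copies, with 13 of 13 above 0. The 13 genes move together across libraries, so that count is not 13 separate observations. The smallest p-values belonged to Ndufv1 (0.073 ± 0.018, adjusted p = 0.075, limma) and to Ndufb2 and Ndufa5, accessory subunits of complex I. Ndufb2 ranged from 1080 to 1617 with vehicle and had means of 1372 ± 118 with vehicle (SD, n = 20) and 1246 ± 96.9 with fluoxetine (n = 19), a difference of -0.14 ± 0.035 (adjusted p = 0.077, limma). Ndufa5 had 0.098 ± 0.027 (adjusted p = 0.12, limma). Beside these, 67 of 82 cytosolic ribosomal protein genes were above 0 (median 0.045). The fluoxetine and lithium comparisons share the 20 vehicle libraries, so that shared signs carry no weight of their own. Without replicate 1 of vehicle-treated HT-labelled males, 3 members passed, all higher. A single member, Ndufv1, passed without replicate 4 of the fluoxetine HT-labelled males, and likewise without replicate 4 of the females of that arm.

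Set directly against fluoxetine, lithium gave 6 higher and 0 lower members of 93 (8.88% of all genes called, 4.51% higher and 4.37% lower). Among the 6282 genes with a mean of at least 1000, 7.62% were higher and 5.43% lower. Cox7b, an X-linked subunit of complex IV, had means of 4030 ± 185 with lithium (SD, n = 20) and 3747 ± 206 with fluoxetine (n = 19), a difference of 0.10 ± 0.023 (adjusted p = 0.0025, limma). Cox6b1 (0.13), Ndufa1 (0.10), Atp5b (0.065), Atp5e (0.072) and the membrane subunit Atp5l (0.076) were the others. Atp5l shares 85.4% of its 31-base words with other genes, whose means sum to 6.02. The nuclear median was 0.010, with 47 of 80 above 0, and the mitochondrial median -0.046 (with copies, 2 of 13 above 0). The count was 12 with the first principal component, 13 with the excitatory and 14 with the inhibitory neuron level as a covariate, the last with 4 higher and 10 lower. It was 3 without the libraries high in striatal markers, and also 3 without replicate 1 or replicate 2 of the WT-labelled fluoxetine females, replicate 4 of the WT-labelled lithium females or replicate 3 of the WT-labelled lithium males.

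Between genotypes, 4 members of 93 were called over all treatments (7.98% of all genes, 3.67% higher and 4.31% lower), 3 lower and 1 higher in HT-labelled libraries. Among the 6282 genes with a mean of at least 1000, 2.09% were higher and 6.56% lower. Ndufc2, an accessory subunit of complex I, ranged from 1302 to 1542 in HT and from 1329 to 1674 in WT. Its means were 1401 ± 64.8 (SD, n = 29) and 1485 ± 95.6 (n = 30), a difference of -0.084 ± 0.021 (SE, adjusted p = 0.0082, limma). Ndufs8 ranged from 1545 to 1981 in HT and from 1478 to 1856 in WT, a difference of 0.083 ± 0.021 (adjusted p = 0.0080, limma). Atp5g3 differed by -0.057 ± 0.015 (adjusted p = 0.015, limma). Cox6a2 ranged from 58.1 to 141 in HT and from 82.6 to 159 in WT, a difference of -0.24 ± 0.074 (adjusted p = 0.037, limma). The ranges overlapped for all 4. With the excitatory neuron level as a covariate, added after the data were seen, Cox6a2 had -0.13 (adjusted p = 0.14), and with the inhibitory level -0.16 (adjusted p = 0.11, limma). Leaving out any of 19 single libraries also ended the genotype call of Cox6a2. Ndufs8 and Cox6a2 were called for lithium as well as genotype. Without the 8 libraries high in striatal markers, Ndufs8 did not pass (0.062, adjusted p = 0.091, limma).

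The mitochondrial genes were all lower in HT-labelled libraries with copies added, from -0.12 (mt-Nd3) to -0.021 (mt-Nd6), with a median of -0.059. They move together across libraries, so their shared sign is not a set of separate observations. Their level with copies was -0.033 ± 0.11 in HT (mean and SD, n = 29) and 0.031 ± 0.12 in WT (n = 30), with overlapping ranges. No mitochondrial gene was called as deposited, and 2 had an unadjusted p under 0.05. The nearest to the threshold was mt-Nd5, at -0.087 ± 0.032 (adjusted p = 0.079, limma). As deposited, mt-Atp6 had 0.11 and mt-Co2 0.019, and both turned to -0.053 and -0.050 with copies. The nuclear median was -0.014, with 28 of 80 above 0. All 10 excitatory neuron markers were below 0 in the same comparison (median -0.11) and all 9 olfactory bulb markers above (0.29), with 0 called in either list and 3 and 0 at an unadjusted p under 0.05. The mitochondrial median as deposited, also -0.059, was -0.024 with the excitatory level as a covariate, -0.045 with the olfactory bulb level and -0.031 with the first principal component. The same covariates gave 4 called members (2 higher, 2 lower) with the excitatory level and 7 (2 higher, 5 lower) with the olfactory bulb level, in place of 4. By sex and treatment the mitochondrial median with copies was -0.051 in vehicle, -0.10 in lithium and -0.10 in fluoxetine males, and -0.022, 0.00034 and -0.071 in the corresponding females. The test of the genotype effect between sexes called 0 of all 93 members as deposited, with 5 at an unadjusted p under 0.05 (3.15% of all genes). Of these 5, mt-Nd4l was the only mitochondrial gene. For the mitochondrial genes with copies, the median of that test (female minus male) was 0.059, with 13 of 13 above 0 and 0 called.

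Pathway genes outside the rule were counted by genotype too, to be read against the 7.98% of all genes called. Gabpa, the subunit of the ETS factor GABP that binds DNA, was higher in HT-labelled libraries by 0.21 ± 0.033 (adjusted p = 1.84e-05, limma). Sirt3, a mitochondrial deacetylase, was lower (-0.12), and these were the 2 called of 12 regulators. Twnk, the mitochondrial helicase (0.12), Fastkd1 (0.11) and the polymerase Polg (0.087) were higher, 3 of 23 in their list. Among subunits outside the rule, Ndufa4l2 was lower (-0.24), 1 of 5. Of 46 assembly factors 3 were called, a share below that of all genes: Ecsit of complex I was higher (0.15), and Ndufaf6 (-0.19) and Sdhaf2 (-0.083) lower. Of 16 carriers, Coq7 was higher (0.12) and Coq2 lower (-0.095), both enzymes of ubiquinone synthesis. Pdha1 of pyruvate dehydrogenase was lower (-0.056), 1 of 17 in its list.

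Between the sexes 0 members were called (0.154% of all genes), and 7 had an unadjusted p under 0.05 (7.85% of all genes). The smallest p-values were those of Cox5a, which was lower in females (-0.063 ± 0.018, adjusted p = 0.25, limma), mt-Nd6 (0.14 ± 0.043, adjusted p = 0.30) and Ndufc1 (0.084 ± 0.028, adjusted p = 0.37). mt-Nd6 had means of 1586 ± 201 in 29 female and 1445 ± 219 in 30 male libraries. The mitochondrial median was 0.041 as deposited and 0.038 with copies, with 12 of 13 above 0, and the nuclear median was 0.0082.

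No single stratum gave a called member for either drug or for genotype, and none of the 5 interactions did. The precision there is lower: the median SE of members was 0.054 within a stratum against 0.027 for the averaged lithium comparison. The nuclear median for lithium was nevertheless above 0 in each stratum: for HT males it was 0.036, for HT females 0.038, for WT males 0.054 and for WT females 0.047. Unadjusted p-values under 0.05 were held there by 10 of 93 members (5.81% of all genes), 10 (5.99%), 16 (9.32%) and 18 (6.56%). For fluoxetine, taken in the same order of strata, they were held by 10 (4.47% of all genes), 3 (3.23%), 24 (9.41%) and 19 (7.78%). Calls over all genes in WT males given fluoxetine were 0.0297% of genes, 0.0119% higher, and no member was among them. The test of the lithium effect between genotypes had a nuclear median of -0.011 and between sexes of 0.00025. For fluoxetine, the nuclear median was largest in WT-labelled males (0.060), and its difference between genotypes had a median of -0.030, with 8 nuclear members at an unadjusted p under 0.05.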

How the data were processed

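RNA of 59 libraries was sequenced after a stranded poly(A) kit, per the labels' protocols, and grouped by genotype, drug and sex as labelled. The authors deposited 1 table of normalised counts, taken as a signal scaled per library. The build GRCm38 and the tools DESeq2 1.19.11, R 3.6.0 and Salmon 0.11.2 are named without their roles, per the submitters' processing notes. Salmon is known to divide reads between near-identical transcripts, which bears on mitochondrial genes with nuclear copies. limma 3.58.1 (R 4.3.3, statmod 1.5.0) was fitted to log2(value + 1) for genes with a mean of at least 10, with 12 group means, trend and robust shrinkage and Benjamini-Hochberg adjustment, called at 0.05. Differences of low genes are understated on that scale. Depth in reads is not given in the sources used here, and normalised totals ran from 30342634 to 33683928.

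Members, lists and alternatives were chosen with earlier results of these data known. Named were Chd8, all mitochondrial members, called members (where over 12, the 6 of smallest p in each direction), the 3 members of smallest p in averaged comparisons without calls, isoform families and extremes of level. Transcript lengths (shortest principal transcript) and shared words of 31 bases came from the GRCm38 annotation, and promoters from RefSeq. A member level is the median, and a marker level the mean, of centred log2 values. The fit was tested on simulated data. All sample columns matched a label. Alternatives were shrinkage, scaling, filter, pseudocount, samples, a replicate block, covariates, added copies and leaving out libraries.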

Additional observations from a re-analysis of the deposited data

Results flagged for a closer look

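Among 108 sets tested (the nuclear, mitochondrial and copy-added levels, mt-Nd6, Cox6b1, Atp5k, Cox6a2, Ndufs8 and mt-Co3 with its copies, each in 12 groups), 1 library lay far from the others of its group. Replicate 3 of the HT-labelled males given fluoxetine had an Atp5k value of 1672, while the other 4 lay between 1868 and 1903. Chance gives about 1 such value in 20 groups. No difference between drug effects in the 2 genotypes or sexes passed its test for a member.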

How the results depend on the processing

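The lithium count of 19 was 18 with TMM factors, 14 without a filter, 15 without striatal-high libraries, 21 with the replicate block and 16 to 23 with 1 library left out. With a covariate it was 24 (olfactory bulb), 25 (excitatory neurons), 23 (first principal component), 22 (ribosomal proteins) and 4 (inhibitory neurons). The count for lithium against fluoxetine was 3 without a filter, 3 without striatal-high libraries, 12 with the first principal component, 13 with the excitatory and 14 with the inhibitory covariate, and 3 to 8 with 1 library left out. The genotype count was 7 with the replicate block, 7 with the olfactory bulb covariate and 3 to 7 with 1 library left out; it was 7 without replicate 1 of vehicle HT-labelled males or replicate 5 of fluoxetine WT-labelled males. Fluoxetine against vehicle gave 1 member (Ndufb2, lower) with the ribosomal protein covariate and 0 to 3 with 1 library left out. Lithium in WT-labelled males gave 1 with the excitatory covariate. Under these settings, 3 medians of the averaged comparisons changed sign: the mitochondrial median for lithium was -0.000497 with the first principal component and -0.027 with the inhibitory covariate, and the nuclear median for lithium against fluoxetine -0.0091 with the inhibitory covariate. Adding the copies turned the sign of mt-Co2, mt-Co3, mt-Atp6 or mt-Nd3 in 1 or more of the averaged comparisons, none of them called, and of the mitochondrial median for lithium in HT males (-0.029 to 0.012), and for genotype in vehicle females (0.0048 to -0.022) and lithium females (-0.0094 to 0.00034). The cause of the other shifts was not tested. With 1 library left out, Atp5b lost its lithium call for 18 libraries, Cox6a2 for 11 and Ndufb10 for 8, and Cox6a2 its genotype call for 19. Replicate numbers were not taken to pair the libraries, since the labels tie them to no dam or litter. Same-numbered pairs had a median r of 0.048, with 123 of 319 over 0.1. Pairs of different numbers had -0.019, with 307 of 1276 over 0.1, and the main fit takes no account of this. As a hint from the data, the olfactory bulb level of replicate 1 was between -2.26 and -1.44 in all 6 HT groups. That of replicate 4 was between 1.15 and 2.25 there, while WT groups showed no such order of that level. Pvalb, compared after its values were seen, was higher in replicate 1 than in replicate 4 in each HT group. In each WT group it was higher in replicate 1 than in replicate 5. The replicate block raised lithium calls over all genes from 742 to 1030, and it moved no count by over 1.5 times except that of genotype. With a median SE of 0.054 in a stratum, differences of the size seen in the averages could go uncalled there.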
